A study of Rattus norvegicus with 12 samples.

Results

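Cytosolic ribosomal proteins are the protein part of the ribosomes that translate mRNA in the cytoplasm. Their genes were taken from the RNA table by symbol (Rpl or Rps with a number, Rplp0 to Rplp2, and Rpsa) and by a summed estimated count of at least 60 over 6 libraries. Of 26949 genes in the table, 88 had such a symbol and 86 reached the count: 37 genes of the small (40S) subunit, 46 of the large (60S) subunit and 3 of the P stalk of the large subunit. The rule read no difference between groups. The pair below the cut comprised Rpl3l, with a summed count of 22, and Rpl39l, with 13, which are known from striated muscle and from testis. The lowest members above it were Rps9 with 78.1, Rps27l with 139 and Rpl39 with 141. Fau and Rack1 also encode ribosomal components but fall outside the symbol rule, and were counted with the translation factors.

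The RNA came from hippocampus of male rats. A group of 3 libraries was exposed to chronic intermittent hypoxia (CIH), repeated falls in inspired oxygen, for 4 weeks, and a control group of 3 libraries was kept in normoxia for 4 weeks. The labels give no strain, age or hypoxia protocol, and do not say whether each library is 1 animal, so p-values measure the spread between these libraries, which may be technical. In whole tissue, fewer cells of a type and less RNA per cell cannot be told apart.

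A cytosolic ribosome takes 1 copy of nearly every one of these proteins, the acidic stalk proteins excepted. A shortage of many of them can stall ribosome assembly. In vertebrates most of these mRNAs start with a C followed by a run of pyrimidines, the 5′ terminal oligopyrimidine (TOP) motif. Through this motif the kinase complex mTORC1, acting in part through the RNA-binding protein Larp1, controls how much the mRNAs are translated and how stable they are. In neurons, ribosomal protein mRNAs are also found in axons and dendrites. Ribosomal protein genes have many processed copies in mammalian genomes, so reads of near-identical sequence can be assigned to more than 1 row of a table.

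The library totals were 17170943, 21941173 and 20009944 estimated counts in CIH and 20392567, 19713519 and 21510725 in control. CIH replicate 1 stood somewhat apart. Its correlation of log2 CPM over genes was 0.968 with control replicate 2 and 0.956 or 0.957 with each other library. Pairs without it went down to 0.966, for control replicates 1 and 2. The dentate granule cell markers of CIH replicate 1 (3 of 5 above 1 TPM) summed to 25.5 TPM, against 87.3 to 214 TPM in the others. Its cortical layer markers, all 5 above 1 TPM, summed to 299.8 TPM, against 137 and 156 TPM in the other CIH libraries and 101 to 144 TPM in control. The closest pair of libraries crossed the groups (CIH replicate 3 and control replicate 1, 0.985), followed by control replicates 2 and 3 (0.982). Oligodendrocyte markers were lowest in control replicates 2 and 3: all 5 were above 1 TPM, and they summed to 6982 to 10071 TPM in CIH, and to 10929 TPM in control replicate 1 but 4123 and 3862 TPM in control replicates 2 and 3. Neuron markers, all 5 above 1 TPM, summed to 4927 to 8813 TPM in CIH and 6094 to 7898 TPM in control. The part of tissue makeup in the results was not tested.

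Most of these genes had a pyrimidine run at the annotated start, and the windows below show it in members on which the later results turn. RefSeq (build GRCr8) held a window of 250 bases before and 50 bases after the annotated start for 64 of the 86 members. The windows are printed as 15 bases before the start and 15 bases from it, 5′ to 3′, with capitals on a run of at least 5 C or T that comes within 5 bases of the start. The first 4 are the members whose groups did not overlap, and the next 3 are members named for their p or role. The last 4, Rps6 and 3 paralogs, hold no such run. Members without a paralog name lacked a run too, among them Rpl11, Rpl18 and Rps3, while the paralog Rps4y2 had a run of 8 bases.
Rps27: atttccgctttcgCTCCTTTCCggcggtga
Rpl22: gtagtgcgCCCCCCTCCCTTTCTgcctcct
Rpl23: actaaCTTCCTTTCTgactctttccggacg
Rpl35: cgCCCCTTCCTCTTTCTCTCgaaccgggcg
Rps14: cccttccgTCTCTCTCTTTCCggtggagga
Rpl12: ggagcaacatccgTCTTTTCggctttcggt
Rplp1: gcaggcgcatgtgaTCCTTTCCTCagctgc
Rps6: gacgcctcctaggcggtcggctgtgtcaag
Rps27l: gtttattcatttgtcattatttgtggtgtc
Rpl22l1: gctccgtggatatccggttccgagttgcgc
Rpl7l1: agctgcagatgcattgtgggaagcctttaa
In GRCr8 these windows lie at chr2:177964592-177964621 (Rps27, minus strand), chr5:168117946-168117975 (Rpl22, plus), chr10:83272170-83272199 (Rpl23, minus) and chr3:43165907-43165936 (Rpl35, minus). The window of Rps14 is chr18:56498245-56498274 (plus), that of Rpl12 chr3:36661925-36661954 (plus) and that of Rplp1 chr8:71290858-71290887 (minus). The windows without a run are chr5:106420526-106420555 (Rps6, minus), chr8:76443643-76443672 (Rps27l, plus), chr2:113683181-113683210 (Rpl22l1, plus) and chr9:21695703-21695732 (Rpl7l1, plus). Each spans the annotated transcription start, the upstream flank and the first transcribed bases.

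A run of at least 5 C or T near the start was present in 45 of 64 members (70.3%), against 29.1% of all 27456 genes with a window. The first transcribed base was C in 32 of 64 members, against 24.2% of all genes. The longest run had 21 bases, and the median was 9 bases in members, against 3 bases in all genes. The hexamer CTTTCC, searched on both strands of the 300 bases, was in 46.9% of members and 26.4% of all windows. The letters TTCCGG, the core of ETS family binding sites, were in 32 of 64 members and 15.8% of all windows, and CTTTCCGG, in which both overlap, was in 4.69% of members and 1.11% of all. The 45 members with a run had a median level of 332 TPM and a median log2 fold change (CIH over control) of -0.02, with 22 higher and 23 lower in CIH. The 19 members without one had a median of 266 TPM and a median log2 fold change of 0.00, with 9 higher and 10 lower. Both medians were near 0. An annotated start can lie some bases away from the start used in hippocampus, which these files do not measure.

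**Figure D1:**
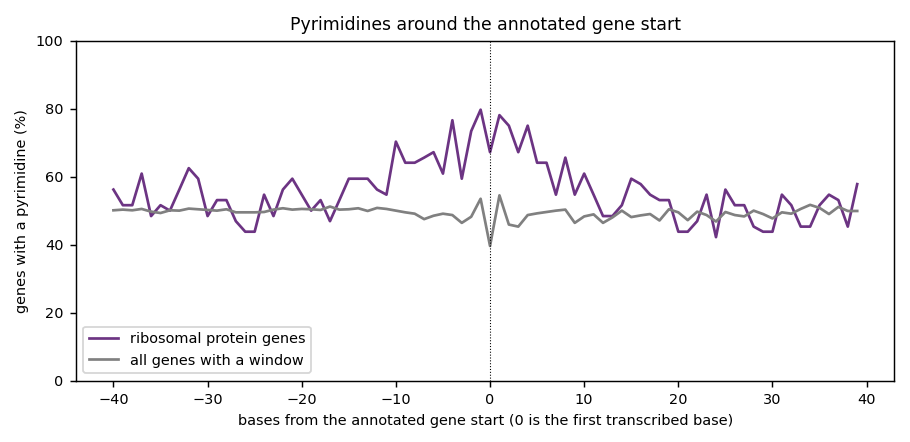
Share of genes with C or T at each base around the annotated start (x axis, bases from the start; y axis, percent of genes), for 64 ribosomal protein genes and for all 27456 genes with a window. The ribosomal protein line stands above the other for several bases on both sides of the start and reaches 79.7% at the base before it, where all genes have 53.5%.

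Ribosomal protein mRNAs were abundant in the hippocampus of both groups. TPM (transcript abundance scaled per library and corrected for gene length) had a median over members of 317, with quartiles of 182 and 531, against a median of 4.66 over all genes above 0. Among the 500 genes with the highest mean TPM, 47 were members. Together the members held 3.35%, 3.30% and 3.17% of all TPM in CIH and 3.47%, 3.15% and 3.14% in control. Their share of the estimated counts, which is not corrected for length, was 0.696%, 0.660% and 0.645% in CIH and 0.686%, 0.659% and 0.640% in control. The shares of counts averaged 0.667 ± 0.0262% in CIH and 0.662 ± 0.0231% in control (SD, n = 3 each), a difference below the spread within either group.

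The highest level was that of Rps29, a small zinc-binding protein of the 40S head, with 1580 ± 249 TPM in CIH and 1508 ± 49.6 TPM in control (SD, n = 3 each). Rplp1 of the P stalk followed with 1093 ± 110.4 TPM in CIH and 1223 ± 130.3 TPM in control. Rpl38, needed in mouse embryos for translation of a subset of Hox mRNAs, had 1045 ± 339.9 TPM in CIH and 1211 ± 531 TPM in control. Rpl35, which lies at the exit of the peptide tunnel, had 1066 ± 7.34 TPM in CIH and 1119 ± 26.9 TPM in control. Next came Rpl37 with 858 ± 109 TPM in CIH and 888 ± 70.5 TPM in control, and Rps15, a 40S head protein near the decoding site, with 866 ± 67.5 TPM in CIH and 847 ± 143 TPM in control. The mean of Rps29 lay above that of Rplp1 by more than the SDs of both in either group, and so did Rpl35 above Rpl37, while Rplp1, Rpl38 and Rpl35 could not be ordered beyond their spread, nor could Rpl37 and Rps15.

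At the other end, 11 members lay under 50 TPM while 71 lay over 100 TPM. The lowest 3 were Rps9 with 1.58 ± 1.19 TPM in CIH and 1.81 ± 1.04 TPM in control, Rpl10l with 1.66 ± 0.878 TPM in CIH and 2.78 ± 0.984 TPM in control, and Rps4y2 with 3.47 ± 0.731 TPM in CIH and 4.77 ± 3.60 TPM in control. The low row of Rps9, a 40S protein at the mRNA entry site, is one of 4 members whose gene ID RefSeq does not list (with Rps19, Rpl35a and Rpl37a). RefSeq gives the name Rps9 to the gene ID that the table calls Rps9l1, which had 121 ± 15.6 TPM in CIH and 133 ± 11.96 TPM in control, and the name Rps19 to the ID the table calls Rps19l2. The ID the table calls Rpl37 is named Rpl37l1 in RefSeq. Each member was then summed with the rows whose RefSeq symbol is its own with a copy or pseudogene ending. IDs that RefSeq lacks were joined by the table's own symbol. The paralogs Rpl22l1, Rpl7l1, Rps27l and Rps4y2 were kept apart by choice, while Rpl10l was summed with Rpl10 and Rpl36al with Rpl36a. Other rows that RefSeq lists as protein-coding were summed too, such as Rpl19l4 with Rpl19, Rpl24l1 with Rpl24 and Rpl26l1 with Rpl26. By these rules 81 families remained and 5 lay under 50 TPM: Rpl22l1, Rpl35a, Rpl7l1, Rps27l and Rps4y2.

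**Figure D2:**
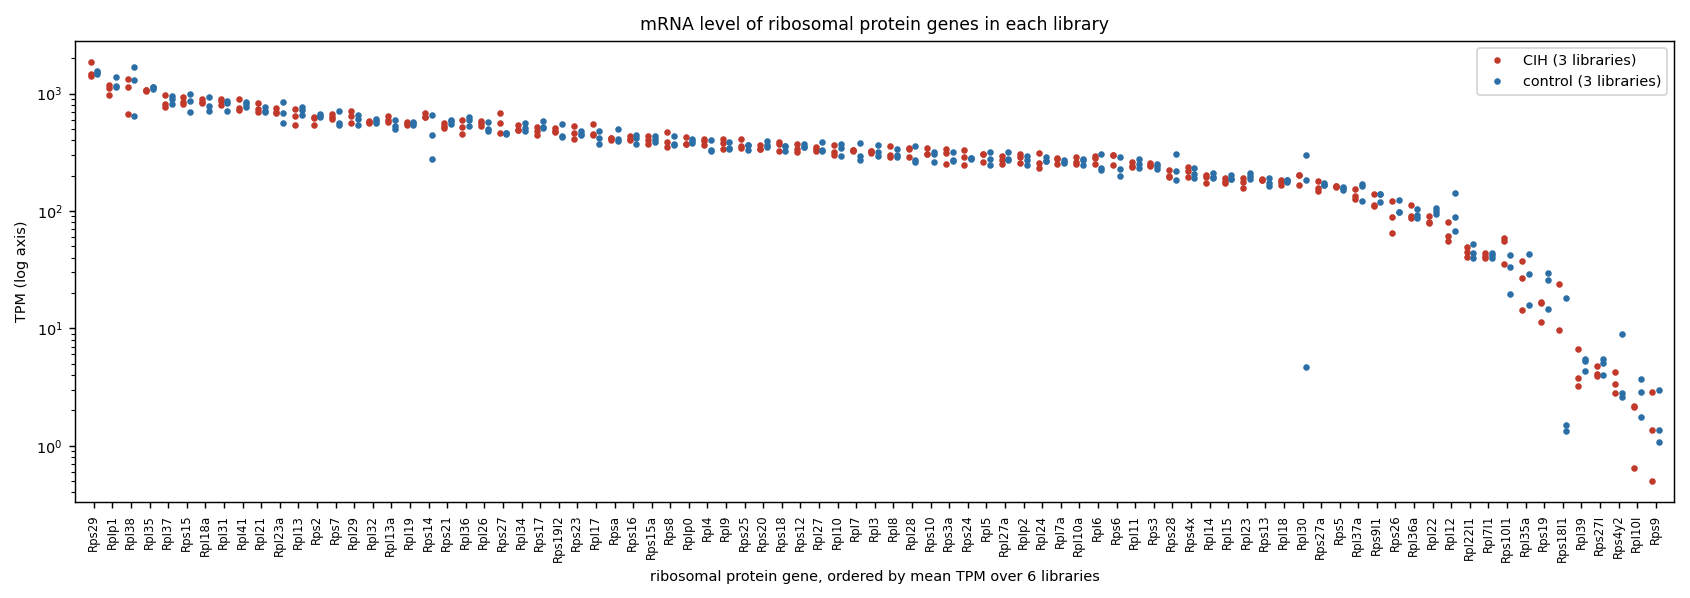
mRNA level of 85 of the 86 ribosomal protein genes in TPM (log axis), ordered by mean TPM, with 1 point per library for CIH and control. Most genes lie within a narrow band around the median of 317 TPM and the groups overlap, the rows at the right end lie under 50 TPM, and the 0 TPM of Rps18l1 in CIH replicate 1 cannot be drawn on a log axis.

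The comparison of CIH with control asked whether 4 weeks of intermittent hypoxia changed these mRNAs. No member passed an adjusted p of 0.05 in edgeR's quasi-likelihood test: 0 of 86, against 0 of 17935 genes tested in all (0%). All 86 members passed the filter on low counts, and the adjusted p was 1.00 for each of them. At an unadjusted p under 0.05 there were 0 members, against 319 of all genes (1.78%), and the smallest p among members was 0.0526. At an adjusted p of 0.05 DESeq2 called 0 members and 9 genes in all, and limma on log2(TPM + 1) called 0 members and 1 gene in all. The 3 libraries of one group lay wholly above or below the other group for 4 of 86 members (4.65%), against 5.70% of all genes, so the members' share was near the background.

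Directions were split evenly, with 43 members higher and 43 lower in CIH. The median log2 fold change was 0.00 over members and 0.00 over all genes, with quartiles of -0.08 and 0.08 over members and -0.11 and 0.12 over all. The fitted change was under 0.2 on the log2 scale in 72 members (83.7%), against 69.3% of all genes. The 95% interval of the log2 fold change lay within 0.5 of 0 in 65 members and within 1 in 75. For the other members these libraries limit the size of a change less closely. Member values also varied little between libraries of a group: the median SD of log2 CPM within groups was 0.136 over members, against 0.163 over 3211 genes of like level and 0.237 over all genes. The genes of like level were other genes between the members' quartiles of log2 CPM (5.25 and 6.7), while 0.136 is over all members, so the level ranges differ. Single members ranged from 0.028 for Rpl15 to 2.41 for Rps18l1, both chosen here for these extremes.

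Members with their highest value in a given library numbered 20, 19 and 5 for the CIH libraries and 19, 11 and 12 for the control libraries. No library held all of them high or low.

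Both subunits had medians near 0. In the 40S subunit 22 members were higher and 15 lower in CIH, with a median log2 fold change of 0.04. In the 60S subunit without the stalk 20 were higher and 26 lower, with a median of -0.02. Summed TPM of the 40S members was 13429, 12689 and 12630 in CIH and 13072, 12350 and 12124 in control. Summed TPM of the 60S members with the stalk was 20080, 20264 and 19033 in CIH and 21616, 19127 and 19240 in control. Both sums overlapped between groups, and in each control replicate 1 was the highest control library. The sums hold the member rows only, without rows of copies that are not members. Within the 40S sum the Rps14 row, whose copy is described below, had 631, 684 and 636 TPM in CIH and 663, 447 and 277 TPM in control. Within the 60S sum Rpl38 had 1135, 1331 and 669 TPM in CIH and 1693, 641 and 1299 TPM in control. The ratio of the 60S to the 40S sum was 1.50, 1.60 and 1.51 in CIH and 1.65, 1.55 and 1.59 in control, or 1.53 ± 0.0557 in CIH and 1.60 ± 0.0532 in control (SD, n = 3 each), again with overlap.

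**Figure D3:**
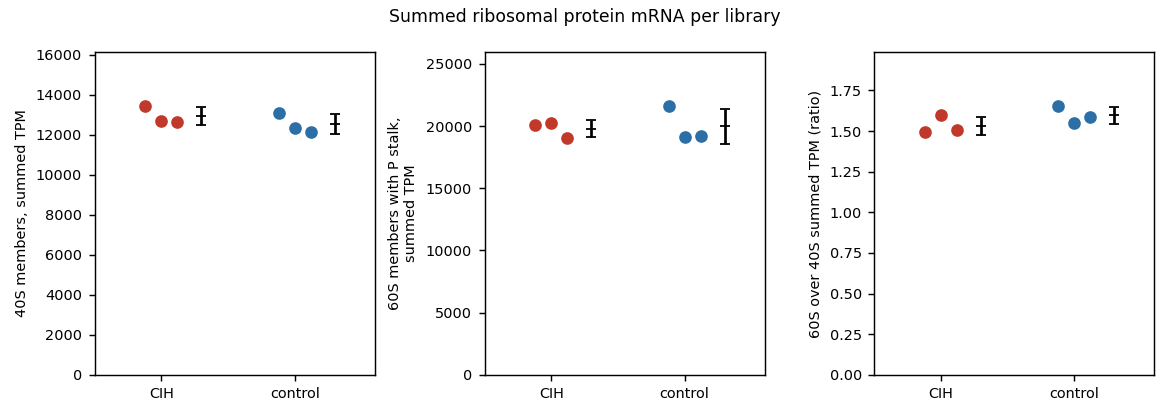
Summed TPM of the 40S members and of the 60S members with the P stalk, and the ratio of the 60S to the 40S sum, with 1 point per library and the mean with its SD as a black bar (n = 3 each). Rows of copies that are not members are left out. CIH and control points overlap in all 3 panels.

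Among 40S members the smallest p was that of Rps27, a zinc-finger protein on the solvent side of the subunit. It had 45.2, 32.7 and 37.9 CPM (counts scaled to the adjusted library total) in CIH and 29.7, 30.5 and 32.2 CPM in control. Every CIH library lay above every control library, CIH replicate 2 only just, and the spread was wider in CIH. The log2 fold change was 0.32 (SE 0.139, 95% interval -0.01 to 0.65, adjusted p = 1.00 in edgeR's test), so the difference did not pass. Without CIH replicate 1 it was 0.19. Its paralog Rps27l, a p53 target in human cells, had 1.18, 1.09 and 0.961 CPM in CIH and 1.39, 0.998 and 1.30 CPM in control, with overlap and a fitted log2 change of -0.19 (SE 0.273).

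Rps14, a platform protein known from the deleted region of the human 5q- syndrome, had 91.9, 104 and 93.2 CPM in CIH and 96.1, 66.4 and 41.3 CPM in control. Control replicate 1 lay among the CIH libraries, and the other control libraries were lower. Its log2 fold change was 0.51 (SE 0.282, adjusted p = 1.00 in edgeR's test), and it ran from 0.25 without control replicate 3 to 0.84 without control replicate 1. Rps6, the substrate of S6 kinase downstream of mTORC1, had 91.8, 78.9 and 93.3 CPM in CIH and 88.9, 62.9 and 71.4 CPM in control. For Rps6 control replicate 1 again lay within the range of CIH, the log2 fold change was 0.24 (SE 0.151), and the difference did not pass the test. It was 0.13 without control replicate 2 and 0.39 without control replicate 1. In control replicates 2 and 3 a copy of Rps14, described below, was high, with 44.4 and 46.2 CPM. All Rps14 rows summed gave a log2 fold change of 0.06 (SE 0.121), so 0.51 was that of the single row and not of the sum. Whether the reads of the copy came from Rps14 was not tested. Control replicates 2 and 3 were also the libraries with the low oligodendrocyte marker sums. The part of the marker difference in these values was not tested.

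Rps3, at the mRNA entry channel and also known for a role in DNA repair, was among the steadiest members, with 78.7, 79.9 and 81.6 CPM in CIH and 80.6, 74.1 and 77.0 CPM in control. The log2 fold change of Rps3 was 0.05 with a 95% interval of -0.16 to 0.26. Rpsa, the 40S protein that doubles as a laminin receptor, had 176, 178 and 177 CPM in CIH and 169, 214 and 175 CPM in control, with control replicate 2 the highest and an interval of -0.36 to 0.21. Rps27a, made as a fusion with ubiquitin, had a log2 fold change of -0.07 with an interval of -0.30 to 0.17. Rps19, the gene most often mutated in human Diamond-Blackfan anaemia, is split between rows in the table. Its main row, called Rps19l2 there, had 78.2, 86.7 and 78.0 CPM in CIH and 70.8, 91.3 and 70.7 CPM in control (log2 fold change 0.06, SE 0.132). The row called Rps19 had 2.13, 3.22 and 3.14 CPM in CIH and 2.63, 4.94 and 5.65 CPM in control (log2 fold change -0.64, SE 0.334). The sum of both rows had a log2 fold change of 0.03 (SE 0.132), so the larger value was that of the small row and not of the sum. Whether both rows hold reads of 1 gene was not tested.

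In the 60S subunit 3 members were lower in every CIH library than in every control library. Rpl22, an RNA-binding protein that a ribosome can form without, had 18.1, 17.9 and 16.7 CPM in CIH and 20.7, 19.4 and 19.3 CPM in control (log2 fold change -0.17, SE 0.108, adjusted p = 1.00 in edgeR's test). Rpl23, which lies at the subunit interface and can bind Mdm2, had 27.2, 23.6 and 25.2 CPM in CIH and 28.1, 27.3 and 30.9 CPM in control (log2 fold change -0.18, SE 0.112). Rpl35 had 128, 134 and 130.3 CPM in CIH and 135, 139 and 135 CPM in control (log2 fold change -0.06, SE 0.088). All 3 differences were small, none passed the test, and for Rpl35 the nearest CIH and control libraries were almost level. The paralog Rpl22l1, which rises in mice that lack Rpl22, had 8.30, 7.82 and 9.36 CPM in CIH and 9.69, 7.58 and 8.25 CPM in control (fitted log2 change 0.00, SE 0.159).

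Rpl12, at the base of the stalk, had the smallest p of the 60S members. It had 16.6, 24.6 and 18.7 CPM in CIH and 40.7, 26.8 and 20.4 CPM in control. The CIH libraries tended low but CIH replicate 2 lay above control replicate 3, and control replicate 1 was far above the other libraries. The log2 fold change of Rpl12 was -0.55 (SE 0.275, 95% interval -1.21 to 0.10, adjusted p = 1.00 in edgeR's test), and -0.24 without control replicate 1. Rpl13a, which in human myeloid cells can leave the ribosome to silence inflammatory mRNAs, had 172, 159 and 161 CPM in CIH and 159.8, 142 and 135 CPM in control, with a log2 fold change of 0.17 (SE 0.107). Control replicate 1 lay within the range of the CIH libraries, and the difference did not pass.

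Rpl5 and Rpl11, which with 5S rRNA bind Mdm2 when ribosome assembly is disturbed, had log2 fold changes of 0.05 (95% interval -0.24 to 0.35) and -0.03 (-0.27 to 0.21). Rpl5 had 136, 121 and 137 CPM in CIH and 143, 111 and 126 CPM in control. Rpl11 had 61.3, 58.2 and 56.9 CPM in CIH and 65.2, 55.3 and 59.6 CPM in control. Both genes overlapped between groups. Rpl10, which is added last and is needed for subunit joining, had a log2 fold change of -0.04 (-0.34 to 0.25), and Rpl41, the shortest ribosomal protein, had -0.03 (-0.33 to 0.27). Rpl38 was far less steady, with 54.4, 68.6 and 32.7 CPM in CIH and 78.6, 31.4 and 66.2 CPM in control, so that its log2 fold change of -0.18 had an interval of -1.09 to 0.74. A low and 2 higher libraries of Rpl38 were present in each group.

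The P stalk recruits and activates the translation GTPases. Rplp0, its scaffold, had 173, 204 and 171 CPM in CIH and 186, 180.1 and 192 CPM in control (log2 fold change -0.03, SE 0.111). Rplp1 had 142, 183 and 164 CPM in CIH and 170.5, 168 and 205 CPM in control (-0.15, SE 0.139). Its partner Rplp2 had 33.8, 33.7 and 28.6 CPM in CIH and 32.0, 27.7 and 31.0 CPM in control (0.08, SE 0.118). All 3 stalk genes overlapped between groups. Per length, Rplp1 was above Rplp2 in both groups, with 1093 ± 110.4 against 284 ± 25.7 TPM in CIH and 1223 ± 130.3 against 270.4 ± 23.2 TPM in control (SD, n = 3 each).

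**Figure D4:**
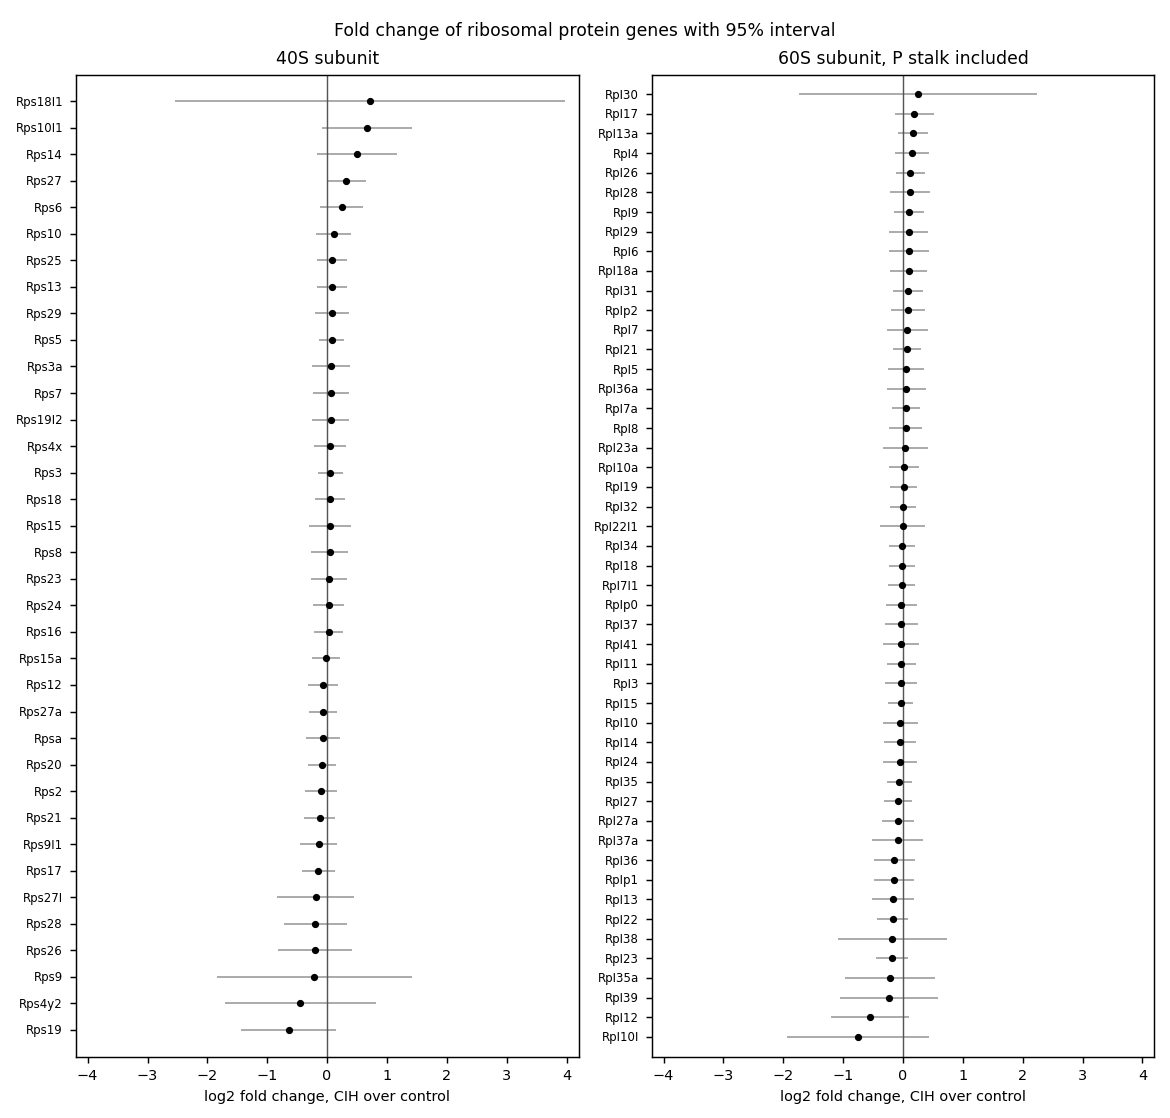
Log2 fold change (CIH over control) of 85 of the 86 members with its 95% interval from edgeR's quasi-likelihood fit, 40S members in the left panel and 60S members with the P stalk in the right. Every interval includes 0, most are narrow, and the widest are those of Rps18l1, Rpl30, Rps9, Rps4y2 and Rpl10l.

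Apart from Rps19l2 and Rps9l1, described above, the other members with a paralog name had mean levels under 50 TPM. Rpl10l, which takes over from Rpl10 in mouse spermatogenesis, had 1.23, 0.379 and 1.21 CPM in CIH and 1.64, 0.998 and 2.09 CPM in control, with a log2 fold change of -0.75 (SE 0.501), the lowest of the members, and -0.36 without CIH replicate 2. Rpl7l1, a relative of the yeast assembly factor Rlp7, had 42.9, 42.3 and 45.8 CPM in CIH and 46.8, 41.9 and 44.3 CPM in control (-0.02, SE 0.095), beside Rpl7 itself with 0.07 (SE 0.144). Rps4y2 had 1.06, 1.33 and 1.62 CPM in CIH and 0.994, 3.44 and 1.07 CPM in control (-0.45, SE 0.532), where control replicate 2 alone was high. Rps10l1, a pseudogene in RefSeq, had 10.3, 6.73 and 10.9 CPM in CIH and 7.70, 3.64 and 6.21 CPM in control (0.67, SE 0.315, adjusted p = 1.00 in edgeR's test), and without control replicate 2 the log2 value was 0.42. Rps10, the 40S protein it copies, gave 0.11 (SE 0.122), and the sum of both rows gave 0.17 (SE 0.108). Rps18l1 had 0.00, 1.75 and 4.15 CPM in CIH and 3.13, 0.249 and 0.232 CPM in control, while Rps18, the member it copies, had 0.05 (SE 0.106). The value of Rps18l1, 0.72 with an SE of 1.37, rests on such a scatter that it gives no direction.

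Several single rows differed between libraries in the opposite direction to a copy of the same gene. Estimated counts were not whole in 50.8% of member values, against 16.0% of all values (beyond 1e-06 of a whole number), as happens where reads are shared between rows. The 16.0% is over all 26949 rows, of which 17935 passed the filter on low counts, so the sets differ in level. Rows whose RefSeq symbol marks them as copies or pseudogenes of a member, matched by gene ID, numbered 70 with counts. They held 4.52% of the families' counts. In 15 of 81 families over 5% of counts lay outside the first member. Apart from Rps14, the families described next were picked with their values in view. The copy of Rps14 named LOC100911847, a transcribed pseudogene in RefSeq, had 7.84, 8.47 and 10.3 CPM in CIH and 8.50, 44.4 and 46.2 CPM in control. It was high in exactly the control libraries in which the Rps14 row was low. All Rps14 rows summed to 99.8, 112 and 104 CPM in CIH and 105, 110.8 and 87.5 CPM in control. The log2 fold change of the sum was 0.06 (SE 0.121), against 0.51 for the Rps14 row alone.

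Rpl30, a 60S protein that binds its own transcript in yeast, showed the same between libraries of 1 group. Its row had 27.9, 24.5 and 28.0 CPM in CIH and 25.5, 40.6 and 1.76 CPM in control. The row LOC100362027 (Rpl30l2 in RefSeq) had 21.8, 19.2 and 25.005 CPM in CIH and 22.1, 0.00 and 37.5 CPM in control. The copy was thus listed at 0 where Rpl30 was highest and was highest where Rpl30 was lowest. Their sums were 49.7, 43.7 and 53.0 CPM in CIH and 47.5, 40.6 and 39.2 CPM in control, with a log2 fold change of 0.20 (SE 0.124). Copies of Rpl36 and Rpl8 also had their highest values in control replicates 2 and 3. The Rpl36 copy LOC100361079 had 0.673, 1.38 and 1.32 CPM in CIH and 1.89, 6.54 and 7.93 CPM in control. The Rpl8 copy LOC100360117 had 0.00, 1.12 and 0.641 CPM in CIH and 1.15, 13.2 and 7.04 CPM in control. The family sums had log2 fold changes of -0.27 (SE 0.141) for Rpl36 and -0.04 (SE 0.106) for Rpl8, and neither passed the test.

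For some genes the copy held most of the counts in all libraries. The Rpl39 row had 1.54, 0.736 and 0.961 CPM in CIH and 1.34, 1.40 and 1.11 CPM in control, while its pseudogene row LOC103692785 had 26.9, 23.0 and 23.9 CPM in CIH and 26.9, 23.8 and 29.9 CPM in control. Of the counts of the Rpl39 family, 95.7% lay outside the Rpl39 row, and of those of the Rps26 family 81.2% did. Whether the reads came from the gene or from the copy cannot be read from these files, so the level of either row is uncertain. The family sum does not depend on that split, but can hold reads of more than 1 gene. Over the 81 family sums, 0 passed an adjusted p of 0.05 (0% of 17906 genes), 0 had an unadjusted p under 0.05 (1.77% of all) and 4 did not overlap between groups (4.94%, against 5.68% of all), which were Rps27, Rpl22, Rpl23 and Rpl35 again. The median log2 fold change was 0.02 over families, with 42 higher and 39 lower, from -0.55 for Rpl12 to 0.44 for Rpl35a (SE 0.216). The Rpl35a row alone had -0.22 (SE 0.316), and its copy LOC103690996 had rounded counts of 118, 15 and 31 in CIH and 0 in every control library, most of them in CIH replicate 1. Summing also turned the signs of Rpl8, Rps19 and Rps26, 4 members in all. The fitted change was under 0.2 on the log2 scale in 73 families (90.1%).

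**Figure D5:**
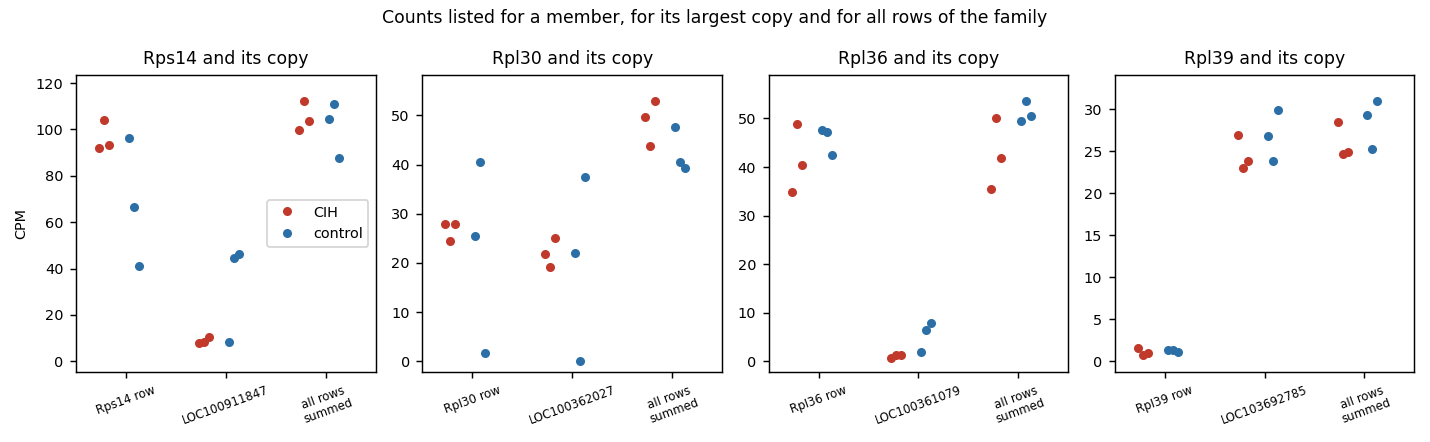
CPM in each library for a member's own row, for its largest copy and for all rows of the family summed, in 4 families (CIH left of control). In the Rps14 and Rpl30 panels a control library low for the member is high for the copy and the sums lie close together, and in the Rpl39 panel the copy holds nearly all counts.

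No gene passed the test in any of 3 lists of related genes. Of 18 translation factors and related genes with TOP mRNAs, 17 were tested; 0 passed, 10 were higher and 7 lower in CIH, and the median log2 fold change was 0.01. The smallest p among them were those of Eif3k, an initiation factor subunit (-0.12, SE 0.097), Eef1g, an elongation factor subunit (0.08, SE 0.093), Npm1, a nucleolar chaperone (-0.10, SE 0.117), and Tpt1 (0.15, SE 0.193). Tpt1 ran from 0.005 without control replicate 2 to 0.38 without control replicate 1. Of 29 ribosome biogenesis genes 0 passed, and 4 were higher and 25 lower in CIH, with a median of -0.07. Over all genes 9076 were higher and 8859 lower, with a median of 0.00. The genes of this list lie in 1 set of libraries and are not independent, and their values were small. Nop16, a nucleolar 60S assembly protein, had 14.4 ± 1.62 CPM in CIH and 18.1 ± 0.781 CPM in control (SD, n = 3 each; log2 fold change -0.34, SE 0.131, adjusted p = 1.00 in edgeR's test). Its groups did not overlap, which held for 1 of the 29 genes, against 5.70% of all genes. Nob1, the nuclease that finishes 18S rRNA, had -0.16 (SE 0.116), Tsr1 -0.21 (SE 0.154) and Ltv1 -0.20 (SE 0.175), the last a pair of 40S assembly factors. Without CIH replicate 1 Tsr1 had -0.08 and Ltv1 -0.08.

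Of 26 genes of mTORC1 signalling and translation control 0 passed, and 9 were higher and 17 lower, with a median log2 fold change of -0.03. Myc, a transcription factor that drives ribosomal protein and biogenesis genes, had 5.18 ± 0.875 CPM in CIH and 7.32 ± 0.732 CPM in control (SD, n = 3 each). Its groups did not overlap, and its log2 fold change was -0.50 (SE 0.189, adjusted p = 1.00 in edgeR's test). Eif4ebp2, the main neuronal inhibitor of eIF4E, had 0.13 (SE 0.094) and was the other gene of the 26 whose groups did not overlap, higher in CIH, where 5.70% of all genes did not overlap in either direction. Rheb, the GTPase that activates mTORC1, had -0.12 (SE 0.105), and Rptor, the subunit that binds its substrates, had -0.11 (SE 0.108). Translation and phosphorylation, through which mTORC1 acts on TOP mRNAs, were not measured by these libraries.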

How the data were processed

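The 6 hippocampus RNA libraries (3 CIH, 3 control, grouped by title) were used; the small RNA libraries were not used here. Per the file headers, the authors deposited estimated counts, TPM and FPKM per gene. The deposited FPKM values were not used in any test. Per the submitters' processing notes, the build was Rnor_6.0 and the tools were RSEM 1.2.12, Bowtie2 2.2.5 and HISAT2 2.2.0, with no role stated. Annotation and strand use were not stated, so reads of overlapping antisense genes cannot be told apart.

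Estimated counts were rounded and tested with edgeR 4.0.16 in R 4.3.3 (quasi-likelihood F test, TMM, filterByExpr), with Benjamini-Hochberg adjustment over all 17935 genes and a threshold of 0.05. The fit was tested on simulated data. CPM is counts over the TMM-scaled total, the log2 SD used a prior count of 2, and errors are SD over 3 libraries or SE of the fit. Levels between genes were compared in TPM. Alternatives used DESeq2 1.42.0 and limma 3.58.1 on log2(TPM + 1) and log2(TPM + 0.1). Summing members with rows whose RefSeq symbol marks them as copies was added after seeing the data. The table's symbol was used where RefSeq lacks the ID, and paralogs chosen by hand (Rpl22l1, Rpl7l1, Rps27l and Rps4y2) were kept apart. Of 26949 gene IDs, 19709 matched RefSeq.

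Members and lists were chosen with earlier results of these data known. Named members were the 10 with the smallest p, the 6 highest and 3 lowest by mean TPM, symbols ending in l or l and a digit with the gene each copies, the P stalk, Rpsa and the set Rps6, Rpl5, Rpl11, Rpl10, Rpl13a, Rps19, Rps3, Rps27a, Rpl38 and Rpl41. Up to 4 genes were named per pathway list, by smallest p. A member that this rule names is not reported here singly and is left out of the plots of single genes, but stays in every count. Deviations from group means correlated at -0.22, -0.05 and -0.18 between same-numbered libraries. Marker lists held astrocytes (3035 to 3086 TPM summed in CIH, 2515 to 3403 in control), microglia (148 to 168 in CIH, 139 to 157 in control), endothelium and pericytes (365 to 458 in CIH, 314 to 403 in control), choroid plexus (1.97 to 63.5 in CIH, 16.1 to 59.9 in control), red blood cells (297 to 670 in CIH, 341 to 538 in control) and cortical layers (137 to 299.8 in CIH, 101 to 144 in control), besides neurons, oligodendrocytes and dentate granule cells.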

Additional observations from a re-analysis of the deposited data

How the results depend on the processing

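The number of members past an adjusted p of 0.05 was 0 under every setting run: RLE scaling, library totals, no filter, the replicate block, DESeq2, limma with either pseudocount, copies summed, and each library left out. Over all genes the count was 9 with DESeq2, 1 with limma on log2(TPM + 1), 1 with limma on log2(TPM + 0.1), and 0 to 1 when a library was left out, against 0 otherwise. Leaving out CIH replicate 2 gave 1 call over all genes, and leaving out control replicate 3 gave 1. The median log2 fold change of members stayed between -0.0159 and 0.0259, and the CIH minus control share of counts between -0.009 and 0.018 percentage points.

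The replicate block gave 0 calls among members and a median of 0.0052. The numbers share no stated origin and did not pair the libraries, and the block turned 1 sign, that of Rpl22l1 (0.001). Without CIH replicate 1, which stood apart, 0 members passed and the median was -0.0087. At an unadjusted p under 0.05, 5 of 86 members passed without control replicate 1 (5.49% of all genes), 2 without CIH replicate 2 (3.35%), 1 without control replicate 3 (0.792%) and 0 without each other library (1.39% to 2.21%). The block gave 1 (1.77%) and limma 1 with either pseudocount (2.30% and 2.25%).

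Signs of single members were not stable: 42 of 86 turned when some library was left out. The fitted log2 change was under 0.2 in 72 members, and sign turns were not counted over all genes, so this count has no background beside it. Of 49 named genes, 41 turned or moved by over 1.5 times for at least 1 library left out. In fits of all libraries, Rps18l1 turned to -0.286 with limma on log2(TPM + 0.1), and Rps19 to 0.030 with copies summed, which also turned Rpl8 to -0.045, Rpl35a to 0.438 and Rps26 to 0.031. When libraries were left out, log2 fold changes ran from -0.131 to 0.033 (Rpl10), -0.089 to 0.035 (Rpl11), -0.082 to 0.102 (Rpl22l1), -0.114 to 0.045 (Rpl37), -0.483 to 0.090 (Rpl38), -0.144 to 0.030 (Rpl41), -0.035 to 0.152 (Rpl5), -0.028 to 0.233 (Rpl7), -0.064 to 0.021 (Rpl7l1) and -0.112 to 0.015 (Rplp0). They ran from -0.072 to 0.150 (Rps15), -0.425 to 3.009 (Rps18l1), -0.002 to 0.190 (Rps19l2), -0.037 to 0.136 (Rps29), -0.743 to 0.372 (Rps4y2), -0.953 to 0.363 (Rps9) and -0.137 to 0.034 (Rpsa). The cause was not tested. A share without mitochondrially encoded genes was not run, since the table lists 0 of them. Depth limits the rows with few counts, and shared reads limit rows with copies.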
